A study of Mus musculus with 9 samples.

Results

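The genes described here encode the constitutive proteasome, its regulatory particles, its activators and inhibitor and the chaperones that assemble it. They were taken by symbol, as every gene named Psma to Psmg with a number, leaving out the inducible catalytic subunits Psmb8, Psmb9 and Psmb10 and the cortical subunit Psmb11. This gave 43 of the 15080 genes in the table, and all 43 matched 1 annotated gene of GENCODE M21 on GRCm38. RNA had been measured in sorted thymic epithelial cells, stromal cells on which T cells mature and are selected. The donors were young male wild-type (WT) mice. The 5 libraries of the rAREG group came from mice injected in the thymus with 1 µg of recombinant amphiregulin, a ligand of the EGF receptor, 10 days before collection. The 4 libraries of the vehicle group came from age-matched WT mice injected with PBS at the same time. Libraries were bulk MARS-seq, a method that counts unique molecular identifiers (UMIs) at the 3′ ends of polyA RNA.

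The proteasome is the protease that degrades ubiquitin-tagged proteins in the cytosol and nucleus. Its 20S core stacks rings of alpha and beta subunits, with the active sites inside on Psmb5, Psmb6 and Psmb7. The 19S cap recognises, unfolds and feeds in substrates, and other activators can take its place. In the thymus the core has a second role, since it cuts the peptides that epithelial cells show on MHC class I to developing T cells, and variants of the catalytic subunits change which peptides are made.

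The libraries held 1523246 to 2159115 UMI counts in rAREG and 1804171 to 2118524 in vehicle. Replicates are numbered here by sample title. The library numbers differ for rAREG replicate 5 and vehicle replicate 4, which are both number 6. Whether a library stands for a single mouse or for pooled mice is not stated in the labels; the p-values therefore describe variation among the 9 libraries, which may be technical. Epithelial markers were abundant, with Epcam at 189 to 240 CPM (UMIs scaled by TMM-adjusted library total) and Krt8 at 1210 to 1560 CPM over the 9 libraries. The 9 thymocyte markers in the table summed to 58.0 to 96.4 CPM in rAREG and 52.0 to 88.0 CPM in vehicle. The 6 fibroblast markers, mostly Dcn, summed to 214 to 473 CPM in rAREG and 254 to 815 CPM in vehicle. The 7 dendritic and myeloid markers, mostly Cst3 and Lyz2, summed to 1550 to 2032 CPM in rAREG and 1690 to 2147 CPM in vehicle, and the 3 endothelial markers to 10.2 to 28.4 CPM in rAREG and 16.8 to 35.2 CPM in vehicle. Itgax, Pdgfra and Col1a1 were at 0 in at least 1 library. Among the 10 epithelial markers Aire, the regulator of tissue-restricted genes in medullary epithelium, was higher in rAREG, at 1159 ± 168 CPM (SD, n = 5) against 729 ± 157 CPM in vehicle (SD, n = 4; edgeR, adjusted p = 0.037). Fewer cells of a type and less RNA per cell cannot be told apart in such bulk samples, and the part of other cells in the results below was not tested.

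Promoter sequences of 36 of the 43 genes were at hand (RefSeq, GRCm38.p6, from 250 bases before to 50 after each start site). Each was searched on both strands for 4 motifs. They were the core of the antioxidant response element, TGACNNNGC, which NRF1 and NRF2 factors bind, the CCAAT box, CCAAT, bound by NF-Y, the interferon-stimulated response element (GAAA, NN, GAAA), and the gamma-activated site, TTCNNNGAA, bound by STAT factors. The antioxidant core was in 6 of the 36 promoters (16.7%, against 13.99% of the promoters of 27025 genes). The genes with it were Psmb5, Psmb6, Psmc6, Psmd9, Psmd12 and Psme4. The CCAAT box was in 12 (33.3%, against 41.1%), the gamma-activated site in 2, Psmd2 and Psmg1 (5.56%, against 9.55%), and the interferon element in 5 (13.9%, against 3.99%). Psme1 was among those 5, with Psmb3, Psmd4, Psmd9 and Psmg4. A match describes letters in the window and is not shown to be a used site.

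The promoters of 3 genes that the results turn on are given here. Psme3 had the smallest p of the 42 proteasome genes tested, and Psmb5 is a catalytic subunit with the antioxidant core in its promoter. Psme1 encodes an interferon-inducible activator subunit, as does Psme2. Capitals mark the matched motif, which begins 14 bases before the start site in Psme3 (a CCAAT box on the other strand), 47 bases before it in Psmb5 and just after it in Psme1 (the interferon element on the other strand). Start sites are those of RefSeq. GENCODE M21 begins Psme1 at 55578123, upstream of the whole window printed for it, so motif positions hold for the RefSeq start sites only. Sequences run 5′ to 3′ on the gene's own strand.
Psme3 (chr11:101315963-101316262, GRCm38.p6, plus strand): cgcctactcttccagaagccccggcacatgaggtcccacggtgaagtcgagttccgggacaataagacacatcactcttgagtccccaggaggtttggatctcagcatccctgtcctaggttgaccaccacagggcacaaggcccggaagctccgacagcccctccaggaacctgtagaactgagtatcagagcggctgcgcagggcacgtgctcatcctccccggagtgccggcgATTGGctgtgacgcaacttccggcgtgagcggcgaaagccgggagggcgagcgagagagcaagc
Psmb5 (chr14:54617946-54618245, minus strand): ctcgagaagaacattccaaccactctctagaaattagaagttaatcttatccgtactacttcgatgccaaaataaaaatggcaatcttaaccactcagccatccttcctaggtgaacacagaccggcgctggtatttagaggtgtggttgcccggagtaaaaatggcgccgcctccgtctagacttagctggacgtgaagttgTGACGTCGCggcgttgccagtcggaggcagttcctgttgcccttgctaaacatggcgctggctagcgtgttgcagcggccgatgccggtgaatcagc
Psme1 (chr14:55578244-55578543, plus strand): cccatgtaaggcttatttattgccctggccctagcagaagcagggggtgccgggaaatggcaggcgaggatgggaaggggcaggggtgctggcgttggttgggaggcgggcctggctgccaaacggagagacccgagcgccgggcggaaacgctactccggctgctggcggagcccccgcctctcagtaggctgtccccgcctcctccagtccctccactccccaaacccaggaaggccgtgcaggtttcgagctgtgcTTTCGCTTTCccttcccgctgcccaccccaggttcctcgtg

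The comparison asked whether expression of the proteasome differed in thymic epithelium 10 days after rAREG. Of the 43 genes, 42 passed the filter on low counts and entered the test, edgeR's quasi-likelihood test over 11636 genes. None passed at an adjusted p under 0.05, in either direction; over all genes tested, 0.559% were called higher and 0.49% lower in rAREG, or 1.05% together. At an unadjusted p under 0.05 there were 3 of the 42, or 7.14%, namely Psme3, Psmb4 and Psma5, against a background of 13.3%. With 1 library left out this count ran from 1, without vehicle replicate 1, 2 or 3 (9.3% to 12.7% of all genes tested), to 6, or 14.3%, without vehicle replicate 4 (16.5% of all genes tested), and limma voom gave 5, or 11.9%, against 15.1%. DESeq2 likewise called none of them after adjustment. It had 3 of the 42, or 7.14%, at an unadjusted p under 0.05, against 10.6% of all genes it tested. In the authors' deposited table none of the 43 had an adjusted p under 0.05, beside 168 of all 15080 genes. The smallest of the 43 was 0.218, for Psme3.

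The differences were small and went both ways. Of the 42 genes, 22 had a positive log2 fold change of rAREG over vehicle and 20 a negative one, with a median of 0.00063 beside -0.0054 for all genes tested. The most negative was Psma5 at -0.33 and the most positive Psme3 at 0.43, and 39 of the 42 lay within 0.25 of 0. The median size, without sign, was 0.093, against 0.17 over all genes tested. These genes are also more abundant than most, with a median of 142 CPM against 26.3 CPM. Among the 7417 tested genes in the same range of mean level, 16.3 to 801 CPM, the median size was 0.14. Only the ends of that range were matched, not the levels within it. The median SE was 0.15 for those genes and 0.12 for the 42, so this does not compare genes of equal level. The medians of the alpha ring, the beta ring and the 19S ATPases, given with each group, were near 0 and turned positive with total counts as the scaling, the last 2 also with upper-quartile factors.

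The intervals show how large a difference the data leave possible. The 95% interval of the log2 fold change lay within 1.5-fold either way for 37 of the 42 genes (88.1%). The background was 50.1% of all genes tested and 71.6% of those in the same range of level, with levels not matched within that range. The 5 whose interval reached past 1.5-fold were Psma5, Psmb2, Psme3, Psmf1 and Psmg3.

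**Figure D1:**
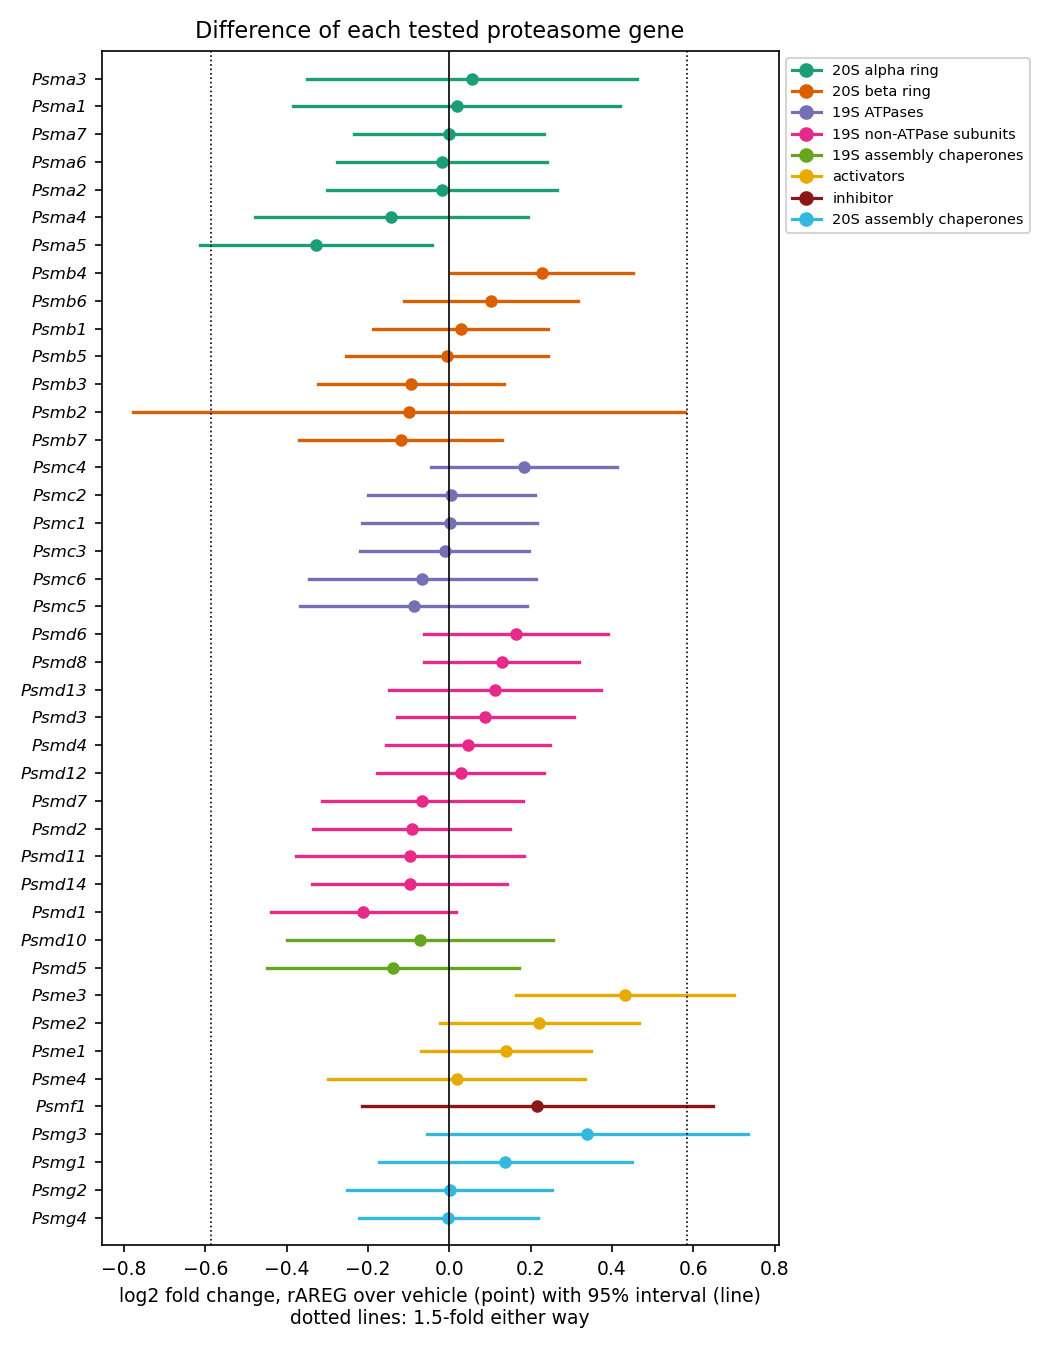
Log2 fold change of rAREG over vehicle (x axis) for each of the 42 tested proteasome genes (y axis, grouped by role), with its 95% interval as a line and 1.5-fold either way as dotted lines. The intervals of 37 genes lie within the dotted lines, and those of Psma5, Psmb4 and Psme3 leave out 0.

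**Figure D2:**
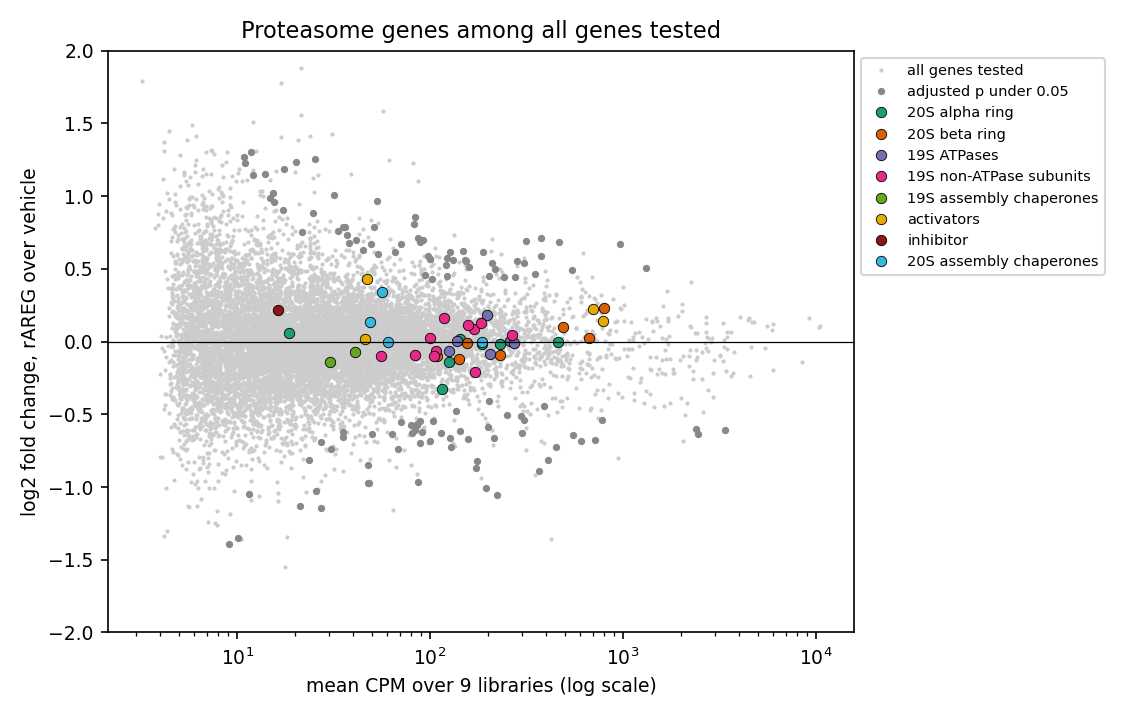
Log2 fold change of rAREG over vehicle (y axis) against mean CPM over the 9 libraries (x axis, log scale) for all 11636 genes tested in light grey, those with an adjusted p under 0.05 in dark grey and the proteasome genes in colour by role; 9 genes lie beyond 2 on the y axis and are not drawn. The proteasome genes lie close to 0, between -0.33 and 0.43.

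Summed over all 43 genes, expression came to 8232, 8351, 9208, 9785 and 8222 CPM in the 5 rAREG libraries, against 8241, 7882, 8663 and 8952 CPM in the 4 vehicle libraries. The groups overlapped, with rAREG replicate 4 the highest of all and vehicle replicate 2 the lowest. The sum was 8760 ± 705 CPM over the 5 rAREG libraries and 8434 ± 470 CPM over the 4 vehicle libraries (mean ± SD), a ratio of 1.04. In raw counts this was 0.819% to 0.941% of all UMIs in rAREG libraries and 0.794% to 0.856% in vehicle libraries.

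The alpha ring forms the gate through which substrates enter the core. Of its 7 genes 2 had positive and 5 negative log2 fold changes, with a median of -0.018, and 0 passed. Psma7 was the most abundant, at 462 ± 42.0 CPM in rAREG and 463 ± 70.2 CPM in vehicle (SD, n = 5 and 4). Psma5 (chromosome 3, 108256926 to 108279974, GRCm38) was at 99.3, 86.5, 135, 114 and 82.2 CPM in the rAREG libraries, against 138, 143, 132 and 108 CPM in the vehicle libraries. Its 3 lowest values were all from rAREG libraries, while rAREG replicates 3 and 4 lay within the range of the vehicle libraries. The log2 fold change was -0.33 ± 0.14 (SE; edgeR, adjusted p = 0.29), with an adjusted p of 0.11 to 0.58 over the alternatives run. Psma4 was at -0.14 ± 0.16 (edgeR, adjusted p = 0.76). Psma3 had the lowest counts of the ring, 18.9 ± 4.58 CPM in rAREG and 18.3 ± 1.06 CPM in vehicle. UMIs at 3′ ends are not divided by transcript length, and how well each 3′ end was captured was not measured, so levels of different genes here are not subunit ratios.

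Vehicle replicate 4 stood apart in this ring. It held the lowest value of the 9 libraries for Psma1, Psma2 and Psma6, at 81.3, 131 and 167 CPM. For Psma7 it held the highest, at 556 CPM against 437 to 537 CPM in rAREG and 390 to 470 CPM in the other vehicle libraries, and the log2 fold change of Psma7 was 0.10 without it. In the 5 rAREG libraries Psma1 was at 129 to 165 CPM, Psma2 at 156 to 219 CPM and Psma6 at 201 to 262 CPM, and in the other 3 vehicle libraries they were at 152 to 178, 198 to 214 and 247 to 257 CPM. Without vehicle replicate 4 the median log2 fold change of the ring was -0.15 and that of Psma1 was -0.17, against 0.018 with all libraries, and none of the 7 passed.

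The beta ring carries the active sites. Of its 7 genes 3 had positive and 4 negative log2 fold changes, with a median of -0.0065, and 0 passed. Psmb5, the chymotrypsin-like subunit (chromosome 14, 54614119 to 54618022), was at 157, 142, 163, 181 and 129 CPM in rAREG libraries, against 148, 133, 151 and 188 CPM in vehicle libraries. The ranges overlapped for the most part, with the lowest value in rAREG replicate 5 and the highest in vehicle replicate 4, and the log2 fold change was -0.0065 ± 0.12, with a 95% interval of -0.25 to 0.24 (edgeR, adjusted p = 0.99). Psmb6, the caspase-like subunit, was at 464, 497, 532, 577 and 466 CPM in rAREG, against 463, 439, 460 and 528 CPM in vehicle. Its log2 fold change was 0.10 ± 0.10, with an interval of -0.11 to 0.32 (edgeR, adjusted p = 0.72). Psmb7, the trypsin-like subunit, was at 139, 137, 162, 131 and 111 CPM in rAREG, against 150, 159, 164 and 118 CPM in vehicle. Its log2 fold change was -0.12 ± 0.12, with an interval of -0.37 to 0.13 (edgeR, adjusted p = 0.72). None of the 3 active-site genes passed, and as folds of rAREG over vehicle the intervals ran from 0.838 to 1.18 for Psmb5, 0.926 to 1.245 for Psmb6 and 0.774 to 1.09 for Psmb7.

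Psmb4, a beta subunit without an active site, had the highest mean of the 43 genes over the 9 libraries, though Psme1 was higher in 5 of them and in the vehicle mean. Psmb4 was at 764, 782, 901, 957 and 877 CPM in the rAREG libraries, against 706, 636, 748 and 834 CPM in the vehicle libraries. The 3 highest values came from rAREG libraries, while vehicle replicate 4 lay above rAREG replicates 1 and 2. The log2 fold change was 0.23 ± 0.11 (SE; edgeR, adjusted p = 0.36; 0.17 to 0.64 over the alternatives run). Psmb2, another subunit without an active site, had the widest spread, with 2.19-fold between its highest and lowest library. It was at 97.4, 86.0, 93.7, 169 and 80.1 CPM in the rAREG libraries, against 83.5, 94.7, 99.3 and 176 CPM in the vehicle libraries. Thus 1 library of each group, replicate 4 by title in both, lay far above the others. These libraries carry different library numbers, 4 in rAREG and 6 in vehicle. The log2 fold change of Psmb2 had the largest error of the 42 genes, -0.099 ± 0.30 (SE; edgeR, adjusted p = 0.93).

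**Figure D3:**
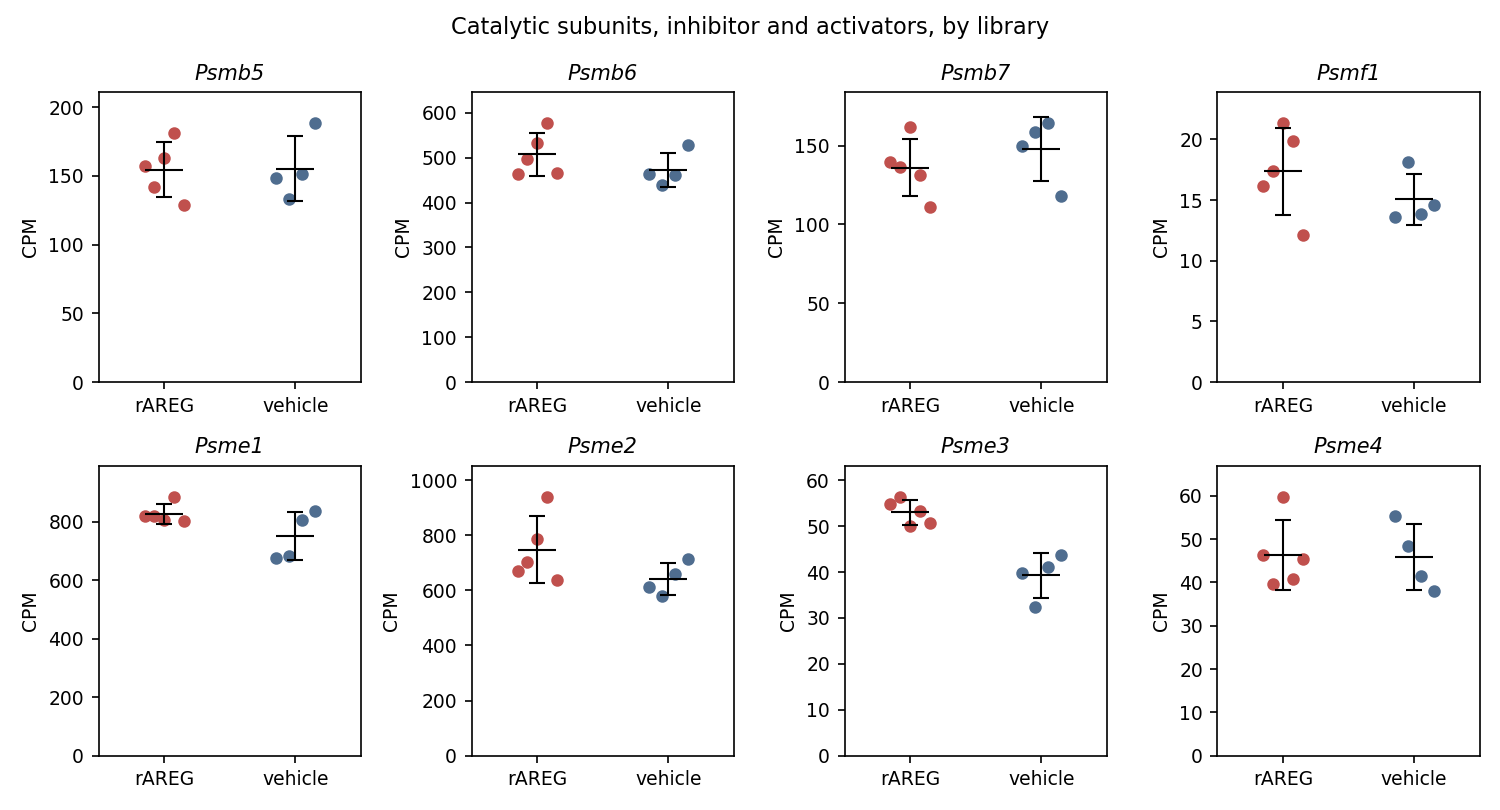
CPM (y axis, from 0) of the 3 catalytic subunits, the inhibitor Psmf1 and the 4 activators in each library (points) of the rAREG group (left, 5 libraries) and the vehicle group (right, 4 libraries), with mean and SD in black. Psme3 is the one gene of the 8 whose groups do not overlap, at 50.1 to 56.4 CPM in rAREG and 32.5 to 43.7 CPM in vehicle.

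The ATPases of the 19S base, Psmc1 to Psmc6, form the ring that unfolds substrates. They were even, with 3 positive and 3 negative log2 fold changes, a median of -0.0054 and summed levels of 1199 ± 111 CPM in rAREG and 1194 ± 79.2 CPM in vehicle (SD, n = 5 and 4). Psmc3, the most abundant, was at 273 ± 24.5 CPM in rAREG and 275 ± 19.1 CPM in vehicle. Psmc4 had the smallest p of the ring, at 208 ± 22.9 CPM in rAREG and 183 ± 20.2 CPM in vehicle (log2 fold change 0.18 ± 0.11, SE; edgeR, adjusted p = 0.49). Psmc5 was at -0.088 ± 0.13 (edgeR, adjusted p = 0.83).

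The other subunits of the 19S cap hold the ubiquitin receptors, the scaffold and the deubiquitinase. Of 11 genes 6 had positive and 5 negative log2 fold changes, with a median of 0.028, and 0 passed. Psmd4, a ubiquitin receptor and the most abundant of them, was at 270 ± 16.2 CPM in rAREG and 261 ± 18.7 CPM in vehicle. Psmd1, the large scaffold subunit, was at 148, 142, 191, 172 and 148 CPM in the rAREG libraries, against 194, 177, 203 and 168 CPM in the vehicle libraries. The 3 lowest values were from rAREG libraries, and the log2 fold change was -0.21 ± 0.11 (SE; edgeR, adjusted p = 0.42). Psmd6, a scaffold subunit of the lid, went the other way, at 0.16 ± 0.11 (edgeR, adjusted p = 0.54). Psmd14, the deubiquitinase that removes ubiquitin chains from substrates, was at 101 ± 14.4 CPM in rAREG and 109 ± 9.10 CPM in vehicle.

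Psmd8, a lid subunit, was at 186, 195, 191, 194 and 192 CPM in rAREG libraries, against 166, 183, 174 and 177 CPM in vehicle libraries. The groups did not overlap, yet the difference was small, with a log2 fold change of 0.13 ± 0.092 and an interval of -0.061 to 0.32 (edgeR, adjusted p = 0.57). Only Psmd8 and Psme3 of the 42 genes had groups without overlap, or 4.76%, close to the background of 4.92% of all genes tested. Without vehicle replicate 4 the count was 5 of 42, or 11.9%, beside 11% of all genes tested with the same libraries.

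The 19S assembly chaperones Psmd5, Psmd9 and Psmd10 help to build the ATPase ring and are not part of the finished particle. Psmd5 was at 28.9 ± 3.09 CPM in rAREG and 31.9 ± 3.45 CPM in vehicle (SD, n = 5 and 4), and Psmd10 at 40.0 ± 5.34 CPM in rAREG and 42.0 ± 8.84 CPM in vehicle (edgeR, adjusted p = 0.75 and 0.89). Psmd9 did not pass the filter, with 0, 6, 3, 1 and 12 UMI counts in the rAREG libraries, against 7, 4, 7 and 3 in the vehicle libraries. A count of 0 in rAREG replicate 1 allows a level of up to 1.94 CPM, a limit that covers counting error only.

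The 4 activators open the gate of the core in place of the 19S cap. All 4 had positive log2 fold changes, beside 49.2% of all genes tested, with a median of 0.18, and 0 passed. The median stayed positive under every alternative run. The sign of Psme4 did not, at -0.086 to 0.12 with 1 library left out. Psme1 and Psme2 encode the subunits of the cytosolic PA28 cap, which interferon-gamma induces and which is linked to making class I peptides, and both lie on chromosome 14. Psme1 (55578123 to 55581529) was at 820, 819, 807, 886 and 801 CPM in the rAREG libraries, against 676, 683, 805 and 837 CPM in the vehicle libraries. Psme2 (55587441 to 55591113) was at 670, 702, 784, 940 and 637 CPM in the rAREG libraries, against 610, 580, 658 and 713 CPM in the vehicle libraries. In both genes vehicle replicates 1 and 2 were the lowest and rAREG replicate 4 the highest. The log2 fold change of Psme1 was 0.14 ± 0.10 (edgeR, adjusted p = 0.58). That of Psme2 was 0.22 ± 0.12 (edgeR, adjusted p = 0.43).

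Psme3 (chromosome 11, 101316213 to 101323537), the nuclear PA28 activator, had the largest difference of the family. It was at 54.8, 56.4, 50.1, 53.4 and 50.6 CPM in the rAREG libraries, against 39.8, 32.5, 41.1 and 43.7 CPM in the vehicle libraries. Every rAREG library lay above every vehicle library. The log2 fold change was 0.43 ± 0.13 (SE), or 1.35-fold, with a 95% interval of 0.16 to 0.70, and it did not pass over all genes tested (edgeR, adjusted p = 0.11). Its adjusted p ranged from 0.069 to 0.31 over the alternatives run, with the same direction in each. Psme4, the activator known as PA200, was at 46.4 ± 8.08 CPM in rAREG and 45.9 ± 7.64 CPM in vehicle (log2 fold change 0.018 ± 0.15; edgeR, adjusted p = 0.97). Psmf1, a protein first described as a proteasome inhibitor, was at 17.4 ± 3.57 CPM in rAREG and 15.04 ± 2.12 CPM in vehicle (edgeR, adjusted p = 0.70).

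The 20S assembly chaperones Psmg1 to Psmg4 guide the alpha ring together. Psmg4, the most abundant, was at 185 ± 19.3 CPM in rAREG and 185 ± 16.6 CPM in vehicle (SD, n = 5 and 4). Psmg3 was at 51.6, 57.5, 57.5, 84.4 and 60.6 CPM in the rAREG libraries, against 38.7, 40.7, 45.8 and 72.9 CPM in the vehicle libraries. Vehicle replicate 4 was above 4 of the 5 rAREG libraries, and the other 3 vehicle libraries were below all of them. The log2 fold change was 0.34 ± 0.19 with all libraries (SE; edgeR, adjusted p = 0.45) and 0.58 ± 0.16 without vehicle replicate 4 (edgeR, adjusted p = 0.062). Psmg1 was at 0.14 ± 0.15 (edgeR, adjusted p = 0.75).

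Libraries of the same group also differed. Across the 9 libraries the highest value of a gene was a median of 1.47 times its lowest over the 42 genes. It was 1.63 times over all genes tested in the same range of level, with levels not matched within that range. The ratio was over 2 for Psmb2, Psma1 and Psmg3 and smallest for Psmd12, at 1.119. Replicate 4 of rAREG was the highest rAREG library for 23 of the 42 genes. Replicate 4 of vehicle was the highest vehicle library for 21 and the lowest for 14; Psmb2 and Psmg3 were among those high there and Psma1, Psma2, Psma4, Psma6 and Psmd10 among those low. Its thymocyte markers summed to 88.0 CPM, the highest of the vehicle group, and its fibroblast markers to 254 CPM, the lowest of that group. Its dendritic and myeloid markers summed to 2147 CPM, the highest of the 9 libraries, mostly from Cst3 at 1833 CPM. Cst3 and Lyz2 were the highest of the vehicle group there. Flt3 and Ptprc, at 1.68 and 5.61 CPM, were the lowest of that group, and Itgax, Itgam and Csf1r lay between. The endothelial markers of vehicle replicate 4 summed to 16.8 CPM, the lowest of the vehicle group. The part of all these markers in the result was not tested.

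**Figure D4:**
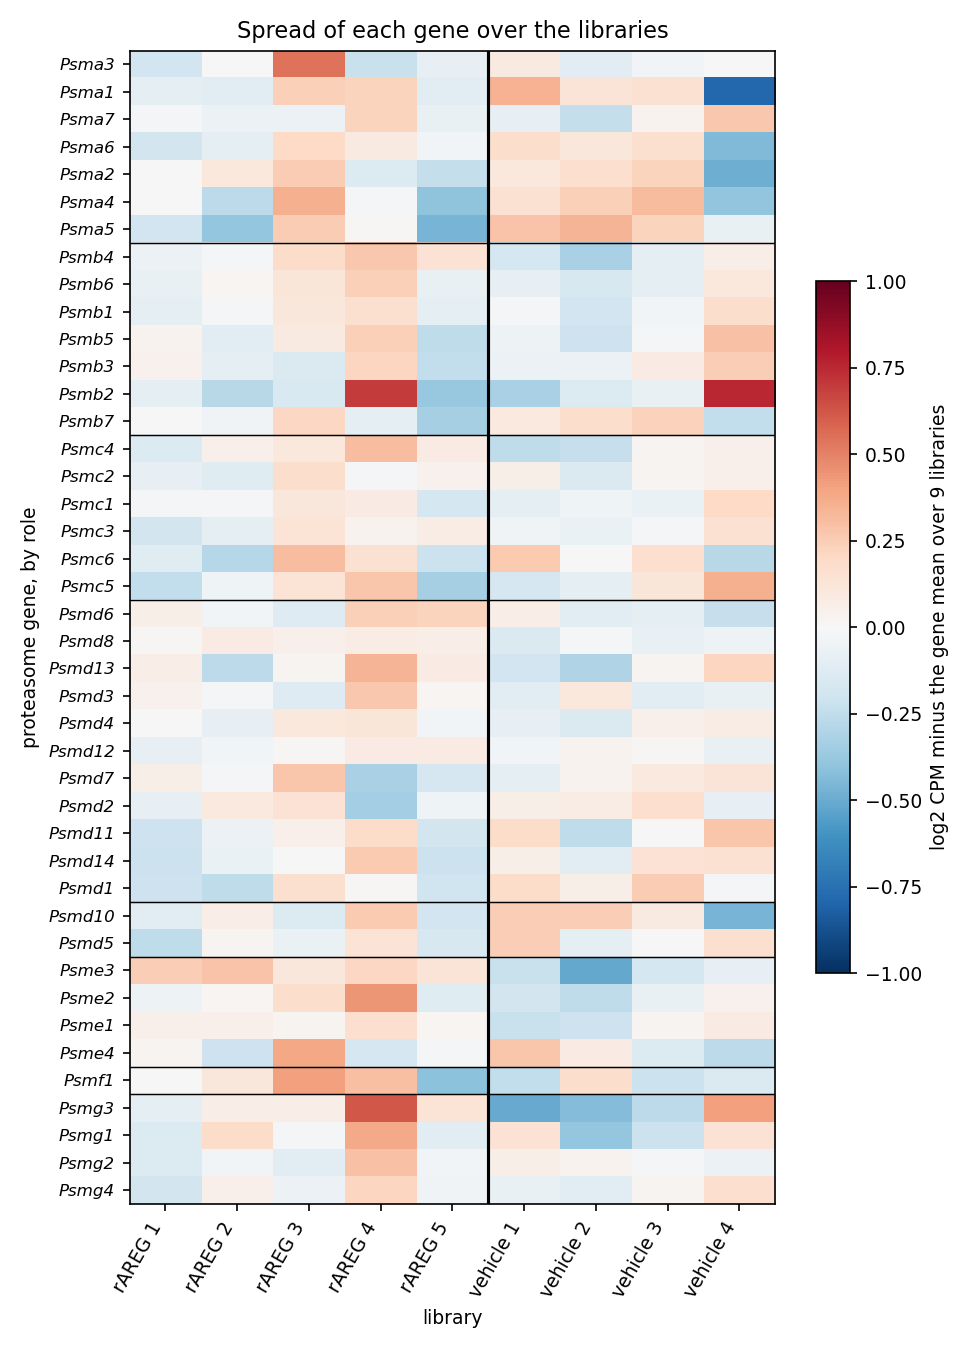
Log2 CPM of the 42 tested proteasome genes (rows, by role) in each library (columns, 5 rAREG left of the black line and 4 vehicle right of it), as the difference from the gene's mean over the 9 libraries (red higher, blue lower). Psmb2 is high in replicate 4 of both groups, and Psma1, Psma2 and Psma6 are low in vehicle replicate 4.

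The inducible subunits Psmb8, Psmb9 and Psmb10 replace Psmb5, Psmb6 and Psmb7 in the immunoproteasome, and Psmb11 replaces Psmb5 in cortical epithelium. Psmb8 was at 591 ± 19.97 CPM in rAREG and 552 ± 43.6 CPM in vehicle, and Psmb9 at 487 ± 64.3 CPM in rAREG and 520 ± 41.0 CPM in vehicle. Psmb10 was at 1032 ± 151 CPM in rAREG and 879 ± 45.5 CPM in vehicle, and Psmb11 at 9.45 ± 3.07 CPM in rAREG and 11.2 ± 3.68 CPM in vehicle. None passed (edgeR, adjusted p of 0.72, 0.77, 0.37 and 0.79). The ratio of inducible to constitutive UMI counts within a library needs no scaling between libraries, and for each of the 3 pairs the groups were compared on the log2 scale with an exact permutation test, two-sided, over every split of the 9 libraries.

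The ratio of Psmb9 to Psmb6 was 1.03, 0.803, 0.983, 0.989 and 0.999 in the rAREG libraries, against 1.18, 1.07, 1.10 and 1.06 in the vehicle libraries. It was lower in each rAREG library than in every vehicle library. On the log2 scale the difference was -0.20, from -0.063 ± 0.14 in rAREG and 0.14 ± 0.069 in vehicle (SD, n = 5 and 4), with an exact permutation p of 0.016 and 0.048 adjusted over the 3 pairs. The call was lost with any 1 library left out, but this pair alone could not keep it with so few libraries. The smallest exact p of a single pair then gives 0.054 or 0.086 after adjustment, so the loss does not bear on the result. The difference stayed between -0.23 and -0.14. Without a rAREG library the adjusted p was 0.086 each time and without vehicle replicate 4 it was 0.054, the smallest that the smallest exact p of a single pair gives with those libraries. Without vehicle replicate 1, 2 or 3 it was 0.21, 0.11 and 0.16, above that limit. The geometric mean ratio of Psmb8 to Psmb5 was 3.84 in rAREG and 3.57 in vehicle (exact permutation p = 0.36, adjusted p = 0.36). That of Psmb10 to Psmb7 was 7.56 in rAREG and 5.98 in vehicle (exact permutation p = 0.12, adjusted p = 0.18), with overlapping libraries in both.

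**Figure D5:**
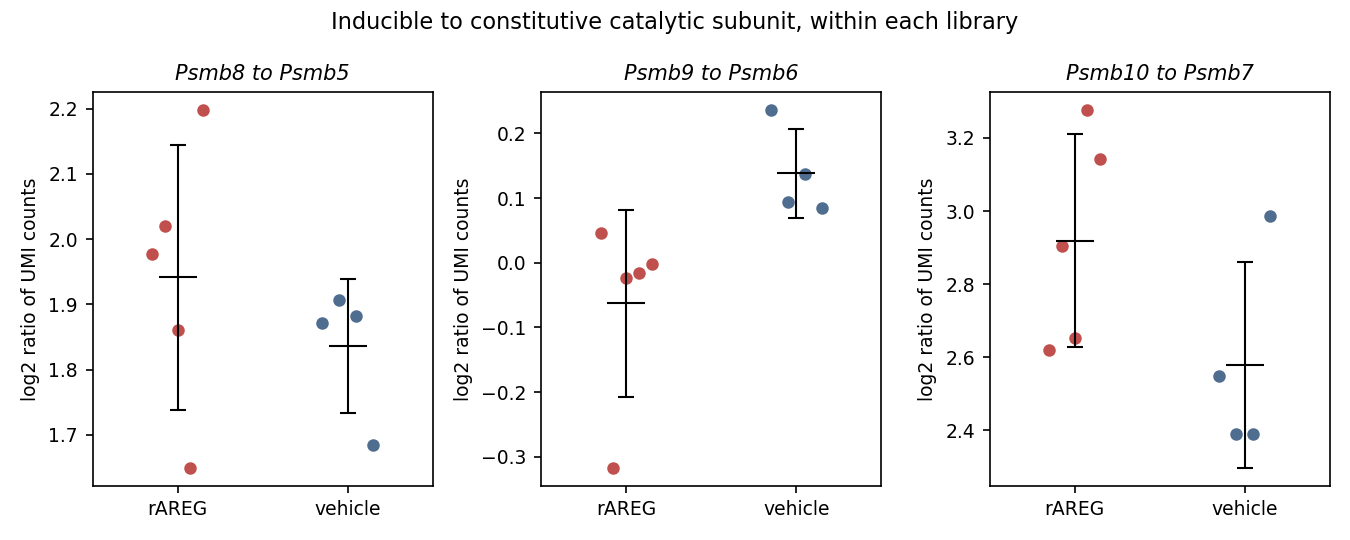
Log2 ratio of UMI counts of the inducible to the constitutive catalytic subunit (y axis, a different range in each panel) in each library of the rAREG group (left, 5 points) and the vehicle group (right, 4 points), with mean and SD in black. The Psmb9 to Psmb6 ratios do not overlap between the groups, with the rAREG libraries lower; the other pairs overlap.

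Among genes that work with the proteasome but fall outside its naming, 0 of 7 tested partners passed. Pomp, the maturation protein of the core, was at 261 ± 30.9 CPM in rAREG and 274 ± 21.6 CPM in vehicle, and Adrm1, a ubiquitin receptor, at 53.6 ± 4.66 CPM in rAREG and 60.8 ± 6.43 CPM in vehicle (edgeR, adjusted p = 0.83 and 0.55). None of 6 tested shuttle receptors, which carry ubiquitinated proteins to the proteasome, passed either, with a median log2 fold change of 0.0032. Of 11 genes linked to the transcription of proteasome genes 0 passed, and the median log2 fold change was -0.16. Positive values were found for 3 of them, beside 49.2% of all genes tested. Nfe2l1, for NRF1, the factor that raises proteasome genes when the proteasome is blocked, was at 242 ± 23.5 CPM in rAREG and 236 ± 22.5 CPM in vehicle (log2 fold change 0.037 ± 0.10; edgeR, adjusted p = 0.92). Nfe2l2, for the oxidative stress factor NRF2, was at 75.9 ± 10.6 CPM in rAREG and 114 ± 28.9 CPM in vehicle. Vehicle replicates 1 and 2 were at 140 and 138 CPM. Vehicle replicates 3 and 4, at 86.9 and 90.8 CPM, were close to the highest rAREG library, replicate 1 at 89.0 CPM. The log2 fold change of Nfe2l2, -0.59 ± 0.15, did not pass (edgeR, adjusted p = 0.072; 0.032 to 0.27 over the alternatives run). It passed with DESeq2, at an adjusted p of 0.048, and without vehicle replicate 3 or 4.

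Some of these genes are uncertain as single genes, because the sources used here do not give how reads matching several places were counted. In the last 300 bases of the annotated protein-coding transcripts, 13 of the 43 genes shared words of 50 bases with transcripts of another annotated gene. For Psma5, Psmb3, Psmb5, Psmd1 and Psme2 over 50% of these words were shared. The last 300 bases of Psmb7, Psmc3 and Psme1 overlap exons of Nek6, Slc39a13 and Emc9 on the other strand, and the sources used here do not give whether counting used strand.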

How the data were processed

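Per the labels' protocols, thymi were digested with enzymes, epithelial cells were sorted and MARS-seq libraries were prepared. The deposited table holds raw UMI counts per gene and library; STAR 2.5.2b, HTSeq, cutadapt, bcl2fastq, DESeq2 and the mm10 build are listed in the submitters' processing notes, without roles or order. The same deposited table gives the authors' own log2 fold changes (PBS divided by AREG, the opposite direction) with p-values, quoted only where named. The 18 columns of normalised and regularised values were not used. No gene's highest count was under 6, a sign of a filter applied before deposit.

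The test was edgeR 4.0.16 under R 4.3.3 (TMM, filterByExpr, robust quasi-likelihood F test), with Benjamini-Hochberg adjustment over 11636 genes; 3444 were left out as low. SE is the size of a log2 fold change over the square root of F, and intervals use the fit's degrees of freedom. The fit was tested on simulated data with 11375 genes. Where the simulated difference was 1.5-fold (96 genes), it recovered 30.21%, so a difference of that size was missed more often than found. Recovery rose to 80.85% at 2-fold (47 genes) and to 97.73% at 3-fold (44 genes). Among its calls 9.091% were false. The true value lay inside 95.3% of its 95% intervals. No replicate pair matched within counting noise (chi-square per degree of freedom at least 2.71). Ratios use counts plus 0.5.

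The genes and lists were chosen with earlier results of these data known. Genes named were, in each role, the most abundant and the 2 of smallest p, with the catalytic subunits, activators, inhibitor, Psmb8 to Psmb11, Nfe2l1, Pomp and Adrm1 always; other genes given with values were chosen after their values were seen. The alternatives were DESeq2 1.42.0, limma 3.58.1 (voom), other scaling and filters, replicate blocks, library size as a covariate and leaving out each library.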

Additional observations from a re-analysis of the deposited data

Results flagged for a closer look

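A check for a library far from the others took in 84 groups of 4 or 5 libraries, not those of every proteasome gene. Psmb2 was chosen after its values were seen. The count is therefore not a rate to set against the 1 in 20 groups that chance gives. Of the 84 groups, 6 held such a library. In 4 of them it was rAREG replicate 4, the highest of its group each time. It held Psma7 at 537 CPM, against 437 to 454 CPM in the other rAREG libraries, Psme1 at 886 CPM, against 801 to 820 CPM, Psmg3 at 84.4 CPM, against 51.6 to 60.6 CPM, and Psmb2 at 169 CPM, against 80.1 to 97.4 CPM. The log2 ratio of Psmb9 to Psmb6 was -0.32 in rAREG replicate 2, against -0.024 to 0.045 in the other rAREG libraries. The log2 ratio of Psmb8 to Psmb5 was 1.68 in vehicle replicate 4, against 1.87 to 1.91 in the other vehicle libraries.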

How the results depend on the processing

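No proteasome gene passed in any of the 9 fits that left out 1 library or under any of the 11 other settings. The sum over the 43 genes, rAREG over vehicle, was computed in those 9 fits and in 6 other settings (scaling, filter and replicate 4 of both groups left out) and stayed between 1.01 and 1.06. The count of all genes called, 122, was 18 to 230 with 1 library left out and 187 with DESeq2. With a replicate block it was 308 by title number and 165 by library number. Same-numbered libraries did not vary together in every pair, so the numbers are not taken as pairs. Correlations were -0.026 to 0.17 by title number and -0.036 to 0.080 by library number. Both replicate blocks called 0 proteasome genes. Leaving out replicate 4 of both groups was added after seeing the data. It left 0 calls and 7 of 42 genes without overlap (16.7%, beside 13.9% of all genes tested there). The Psmb9 to Psmb6 difference was then -0.23 (exact permutation test, adjusted p = 0.13), with too few libraries for this pair alone to pass. With 1 library left out that difference was -0.23 to -0.14.

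Some genes changed sign, with no call; the cause was not tested. Most were near 0 with all libraries, but Psmb11 was at -0.23, Psmb2 at -0.099 and Psmc5 at -0.088. Psma7 was at 0.0034 with DESeq2, 0.0033 with RLE factors, 0.010 with upper-quartile factors, 0.022 with total counts, 0.0052 with the filter of 10 counts in 4 libraries, 0.027 with limma voom, 0.025 with the title block, 0.0058 with library size as a covariate and 0.039 without replicate 4 of both groups. Psmg4 was at 0.0031, 0.0025, 0.0093, 0.019, 0.0040, 0.0056, 0.0040 and 0.013 in the first 8 of these. Psmb5 was at 0.0047 with upper-quartile factors, 0.016 with total counts, 0.013 with voom, 0.056 with the title block, 0.00048 with library size and 0.034 without replicate 4 of both groups. Psmc3 was at 0.00030, 0.011, 0.00046, 0.0050 and 0.030 in the same settings without the block. Without replicate 4 of both groups Psme4 was at -0.012 and Psma1 at -0.22, and with voom Psma1 was at -0.029. With 1 library left out, values ran from -0.073 to 0.10 for Psma7, -0.071 to 0.10 for Psmb5, -0.038 to 0.042 for Psmc3, -0.17 to 0.025 for Psmc5, -0.086 to 0.12 for Psme4, -0.055 to 0.060 for Psmg4, -0.33 to 0.19 for Psmb2, -0.17 to 0.15 for Psma1, -0.018 to 0.086 for Nfe2l1 and -0.33 to 0.034 for Psmb11.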

Other observations

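Genes that supply ubiquitin or hand on proteasome products did not pass either. Of 8 tested genes of ubiquitin supply and p97, an ATPase that extracts ubiquitinated proteins, 0 passed, with a median log2 fold change of -0.065. Ubb, a polyubiquitin gene, was at 3362 ± 337 CPM in rAREG and 3967 ± 471 CPM in vehicle (SD, n = 5 and 4; edgeR, adjusted p = 0.35). Nploc4, a p97 cofactor, was at 24.4 ± 1.96 CPM in rAREG and 19.1 ± 0.876 CPM in vehicle, with no overlap between the groups (edgeR, adjusted p = 0.36). Of 12 genes that load peptides onto MHC class I, 0 passed, with a median log2 fold change of 0.080. Positive values were found for 9 of them, beside 49.2% of all genes tested. Calr, for the chaperone calreticulin, was at 1564 ± 51.6 CPM in rAREG and 1417 ± 53.0 CPM in vehicle, with no overlap (log2 fold change 0.14 ± 0.092, SE; edgeR, adjusted p = 0.53). Groups without overlap were found for 4.92% of all genes tested, so the separation of Nploc4 and Calr is not set apart from that background.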
